A study of Mus musculus with 8 samples.

Results

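The chemokine genes Cxcl13, Cxcl12, Cxcl14, Cxcl16, Cx3cl1, Cxcl1, Cxcl5, Ccl2, Ccl7 and Ccl11 were examined in liver endothelial cells (ECs) with and without deletion of LRP1. They are 10 of the 22520 protein-coding genes of the expression table and were found by their gene symbols. The set was chosen from measured values of this same comparison, in order to place a strong fall of Cxcl13 beside other homeostatic and inflammatory chemokines. Their differences between genotypes are therefore given as values and standard errors, without a p-value. Where calls at the limma thresholds are counted for these genes, nothing is read from the counts.

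LRP1 is a large endocytic and signaling receptor of the low-density lipoprotein receptor family. In the study, mRNA-seq of ECs was used to look for factors that ECs secrete when they lack it. LRP1 eKO mice were LRP1 f/f; Cdh5-CreER+/-, in which the Cdh5 promoter drives an inducible Cre recombinase in ECs, and WT mice were LRP1 f/f; Cdh5-CreER-/- littermates, so that both groups carried the floxed Lrp1 allele. The 4 WT and 4 LRP1 eKO libraries came from C57BL/6 mice at postnatal day 14, and the labels call the cells liver microvesicular cells. The study isolated primary microvascular ECs with PECAM-1 antibody on magnetic beads. The labels give no inducing agent, and do not say whether each library came from 1 animal, so the spread between libraries may include less than the spread between mice.

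Chemokines are small secreted or membrane-tethered proteins that guide leukocytes through G protein-coupled receptors. Homeostatic chemokines such as Cxcl12 and Cxcl13 are made steadily by stromal cells and place hematopoietic and lymphoid cells in tissues, whereas inflammatory chemokines such as Cxcl1 and Ccl2 are induced in many cells by cytokines and microbial products. On vessels, chemokines are held by glycosaminoglycans, cut by proteases and cleared by atypical receptors that do not couple to G proteins. In lymphoid stroma, Cxcl13 is induced through the lymphotoxin beta receptor and noncanonical NF-kappa B.

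Each gene was measured as a quantile-normalized signal, a normalization that gives every library nearly the same distribution of values. Signals were compared as log2(signal + 1), a scale on which differences of weakly expressed genes come out smaller than their true ratios. Signals summed to between 484445 and 485947 in a library, and the sequencing depth is unknown. The targeted gene, Lrp1, had signals of 56.2 to 85.1 in WT libraries and 2.16 to 6.01 in LRP1 eKO libraries, 6.74% of the WT mean. WT replicate 4 was the library farthest from the WT median for 61.7% of genes, and LRP1 eKO replicate 2 was farthest in its group for 37.2%, so values without them are given where they matter.

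Cdh5 and Pecam1, markers of the labelled cell type, were low. The strongest markers of mesothelium, the lining of the liver surface and body cavities, were among the highest genes of every library. Cdh5, the endothelial cadherin whose promoter drives the Cre, had signals of 1.26 to 4.99, and Pecam1, the target of the bead antibody, 1.53 to 3.85. Msln (mesothelin) had signals of 837 to 1370 and Upk1b 767 to 1111. Their lowest percentiles among the genes of a library were 99.66 and 99.60. The mean log2(signal + 1) of liver sinusoidal endothelial markers was 0.90 ± 0.08 (SD, n = 4) for WT and 1.43 ± 0.41 (SD, n = 4) for LRP1 eKO. These marker levels go against an EC preparation that is mostly endothelial, and the cells are called liver ECs below only as the name the study gave them. Lrp1, the target of a Cre under the Cdh5 promoter, was nonetheless at 6.74% of its WT mean. How these observations go together was not tested. Other markers were those of stroma, with Col1a2 at 616 to 889 and Acta2 at 756 to 1099. At a limma adjusted p below 0.05, 3 of 8 tested pan-endothelial markers were higher in LRP1 eKO libraries and 0 lower, where 41.2% of all genes tested were past it in either direction, and the mean log2(signal + 1) of that list was 2.39 ± 0.20 (SD, n = 4) for LRP1 eKO against 2.13 ± 0.07 (SD, n = 4) for WT. Of the 8 mesothelial markers, 2 were higher and 1 was lower. B cell, T cell and NK cell markers were near 0, and Cd79b, Cd8a and the neutrophil marker Ly6g were at 0 in all 8 libraries.

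**Figure D1:**
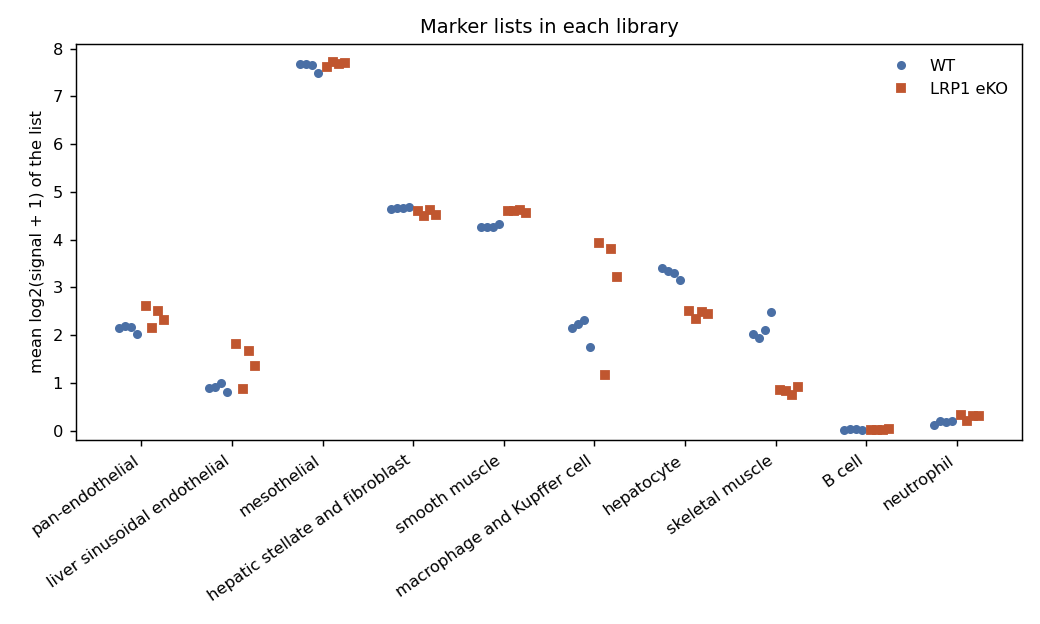
Mean log2(signal + 1) of the genes of 10 marker lists (y axis) in each library; circles are the 4 WT and squares the 4 LRP1 eKO libraries. The mesothelial list is the highest in all 8 libraries, the macrophage list is widely spread among LRP1 eKO libraries with LRP1 eKO replicate 2 lowest, and the hepatocyte and skeletal muscle lists are lower in every LRP1 eKO library than in every WT library.

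On the mouse genome build GRCm38 (GENCODE M21), Cxcl13 (ENSMUSG00000023078) lies on chromosome 5 from 95956951 to 95961068 on the plus strand and has 1 coding transcript with 4 exons. Cxcl1 and Cxcl5 lie on the same chromosome, with starts at 90891241 and 90759360. Cxcl12 is on chromosome 6 (117168535 to 117181367), Cxcl14 on chromosome 13, Cxcl16 on chromosome 11 and Cx3cl1 on chromosome 8. Ccl2 (82035571 to 82037453), Ccl7 (82045712 to 82047525) and Ccl11 (82057823 to 82062955) are neighbours on chromosome 11. Despite their kinship, Ccl2, Ccl7 and Ccl11 shared 0 stretches of 50 bases with each other or with Ccl8 and Ccl12, and neither did Cxcl1 and Cxcl5 with each other or with Cxcl2 and Cxcl3, so that reads of that length distinguish them.

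The RefSeq promoter table (GRCm38.p6) held entries for 5 of the 10 genes. The 150 bases before the RefSeq start site are shown for 3 of them: for Cxcl13 and Cxcl12, the chemokines with the largest negative differences, and for Cxcl1, a classic inflammatory chemokine, as a contrast. They are written 5′ to 3′ on the plus strand, with capitals marking the letters of a TATA box (TATAAA), a GC box (GGGCGG) or a kappa B site (GGG and TTCC with any 3 bases between) on either strand, and the regions are chr5:95956789-95956938 for Cxcl13, chr6:117168385-117168534 for Cxcl12 and chr5:90891095-90891244 for Cxcl1.
Cxcl13: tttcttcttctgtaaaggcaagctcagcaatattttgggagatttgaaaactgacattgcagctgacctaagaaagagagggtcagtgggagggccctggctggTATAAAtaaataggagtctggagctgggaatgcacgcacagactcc
Cxcl12: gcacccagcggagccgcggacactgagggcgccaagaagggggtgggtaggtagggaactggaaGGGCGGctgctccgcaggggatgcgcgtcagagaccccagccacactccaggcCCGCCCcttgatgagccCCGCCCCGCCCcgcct
Cxcl1: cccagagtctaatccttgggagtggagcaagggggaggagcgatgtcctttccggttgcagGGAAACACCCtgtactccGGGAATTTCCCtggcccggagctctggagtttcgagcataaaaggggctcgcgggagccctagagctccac
The Cxcl13 window held a TATA box starting 46 bases before the start site and neither other motif, and its GC content was 46.7%. The Cxcl12 window held 4 GC boxes and had a GC content of 72.7%, against a median of 54% over all promoters of the table. The Cxcl1 window held 3 kappa B matches, the last 2 of which overlap. Among all 32851 promoters of the same length, 7.57% held the TATA box, 28.6% the GC box and 3.05% the kappa B letters. Letters of an AP-1 site (TGANTCA), present in 4.24% of promoters, and of an interferon response element (GAAA, any 2 bases, GAAA), present in 1.59%, were in none of the 3 windows. A match describes the letters and not a site in use.

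Cxcl13 attracts B cells and follicular helper T cells through the receptor Cxcr5. Its signals were 23.9, 25.0, 24.4 and 31.2 in WT replicates 1 to 4 and 4.02, 4.96, 4.54 and 5.31 in LRP1 eKO replicates 1 to 4. Every LRP1 eKO library was far below every WT library, and WT replicate 4 stood above the other 3 WT libraries, which lay close together. The means were 26.1 ± 3.39 (SD, n = 4) and 4.71 ± 0.554 (SD, n = 4), so that the LRP1 eKO mean was 18.0% of the WT mean, a 5.55-fold difference. On the log2(signal + 1) scale the difference was -2.25 (SE 0.10), and it ranked 3 from the lowest among the 11391 genes tested, those whose signal reached 1 in 4 or more of the 8 libraries. Without WT replicate 4, the highest library, it was -2.16. In bulk RNA, fewer cells that make a transcript and less transcript per cell cannot be told apart, here and in the results that follow.

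Marker lists of other cells moved in the same direction as Cxcl13. At a limma adjusted p below 0.05, all 5 skeletal muscle markers that could be tested were lower without LRP1, against 22.2% of all genes tested. Atp2a1 and Tnnc2, at most 0.937 and 0.611 in LRP1 eKO libraries, reached the minimum signal through WT libraries alone. They could be tested only if lower in LRP1 eKO libraries, a selection that the share of all genes does not carry. The skeletal muscle list had a summed signal over the 7 listed genes of 32.7 to 55.8 in WT and 5.87 to 7.81 in LRP1 eKO libraries. Myl1, a fast muscle myosin light chain, was highest in WT replicate 4, as were the other muscle markers tested and Cxcl13. Of the 8 hepatocyte markers listed, 4 could be tested. All 4 were lower at a limma adjusted p below 0.05, against 22.2% of all genes tested. The summed signal over the 8 genes was 1435 to 1504 in WT and 600 to 884 in LRP1 eKO libraries. That sum came mostly from Trf, at 1358 to 1451 in WT and 581 to 862 in LRP1 eKO libraries. Alb was far below it, at 15.7 to 24.7 in WT and 5.70 to 6.83 in LRP1 eKO libraries. No gene of either list was at 0 in all libraries. Among WT libraries, WT replicate 4 was lowest for Alb, Apoa1 and Fgb and highest for Trf. It was also the library farthest from the WT median for 61.7% of genes. The part of muscle cells and hepatocytes in the Cxcl13 difference was not tested. The macrophage list varied most within LRP1 eKO libraries, with a summed signal of 52.9 to 738. Cxcl13 was 4.96 in LRP1 eKO replicate 2, where the macrophage signal was lowest, and 4.02 to 5.31 in the other 3. Follicular dendritic and lymphoid stromal cells are the known makers of Cxcl13 in lymphoid tissue. Of their 9 listed markers, Cr2, Fcer2a, Madcam1 and Tnfsf11 stayed below 0.2 in every library, and the summed signal of 628 to 700 in WT and 555 to 611 in LRP1 eKO libraries came mostly from Pdpn and Vcam1, which mesothelial and other stromal cells also express. Mfge8 was at 115 to 119 in WT and 119 to 134 in LRP1 eKO libraries, and Bst1 at 36.7 to 40.7 and 36.8 to 48.5. Il7 was low and lay higher in LRP1 eKO libraries, at 0.351 to 0.497 in WT and 0.503 to 0.883. Of the 4 genes tested, 2 were lower and 0 higher at a limma adjusted p below 0.05, against 22.2% and 19% of all genes tested.

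Cxcl12, the ligand of Cxcr4 that retains hematopoietic stem cells in their niches, was the most abundant of the 10 in signal. It had signals of 185, 192, 185 and 183 in WT libraries and 104, 79.5, 104 and 93.2 in LRP1 eKO libraries. The WT libraries lay within 1.05-fold of each other and the LRP1 eKO libraries were all much lower, with LRP1 eKO replicate 2 the lowest. The LRP1 eKO mean of 95.2 ± 11.6 (SD, n = 4) was 51.1% of the WT mean of 186 ± 4.08 (SD, n = 4). The log2 difference of -0.97 (SE 0.08) lay just short of 2-fold and was -0.89 without LRP1 eKO replicate 2.

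Cxcl14, a homeostatic chemokine of epithelia and stroma, was low. Its signals were 1.55, 1.77, 1.62 and 2.17 in WT libraries and 1.72, 1.48, 1.74 and 1.77 in LRP1 eKO libraries. The groups overlapped, and the log2 difference was -0.05 (SE 0.08) with all libraries and 0.02 without WT replicate 4, so that its sign rested on that library.

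Cxcl16 and Cx3cl1 are the chemokines made as membrane proteins with a mucin stalk, which tether cells that carry Cxcr6 or Cx3cr1 and are shed by ADAM proteases. Cxcl16 signals were 29.9, 29.2, 28.3 and 35.7 in WT libraries and 23.0, 25.5, 22.3 and 24.5 in LRP1 eKO libraries. The groups were separate but close, with a log2 difference of -0.35 (SE 0.08), and -0.28 without WT replicate 4. Cx3cl1 signals were 7.83, 7.51, 7.70 and 7.81 in WT libraries and 5.43, 3.69, 5.69 and 4.84 in LRP1 eKO libraries. Again no LRP1 eKO library reached the lowest WT library, and LRP1 eKO replicate 2 was lowest, as for Cxcl12. The log2 difference was -0.57 (SE 0.10), and -0.46 without LRP1 eKO replicate 2.

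Cxcl1 and Cxcl5 attract neutrophils through Cxcr2. Cxcl1 signals were 4.04, 4.18, 3.57 and 4.26 in WT libraries and 2.99, 2.83, 2.40 and 2.97 in LRP1 eKO libraries. All LRP1 eKO libraries were lower than all WT libraries, with a log2 difference of -0.40 (SE 0.07). Cxcl5 was barely present, with signals between 0.0453 and 0.0875 in WT libraries and between 0.0151 and 0.146 in LRP1 eKO libraries, and it stayed below the minimum signal for a comparison.

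The CC chemokines Ccl2 and Ccl7, which recruit monocytes through Ccr2, went the other way. Ccl2 signals were 69.1, 67.0, 59.0 and 68.6 in WT libraries and 77.0, 94.8, 71.6 and 85.6 in LRP1 eKO libraries. The lowest LRP1 eKO library was just above the highest WT library, and the log2 difference was 0.31 (SE 0.09). Ccl7 signals were 17.4, 14.9, 15.0 and 18.3 in WT libraries and 28.6, 39.9, 28.0 and 36.2 in LRP1 eKO libraries. For this gene the groups were well apart. The LRP1 eKO mean of 33.2 ± 5.83 (SD, n = 4) was 2.02 times the WT mean of 16.4 ± 1.70 (SD, n = 4), and the log2 difference of 0.96 (SE 0.12) lay just short of 2-fold on the log2(signal + 1) scale. LRP1 eKO replicate 2 was the highest library for both genes. Without it the log2 differences were 0.24 for Ccl2 and 0.87 for Ccl7. Smooth muscle markers were also higher in LRP1 eKO libraries, 5 of 6 tested at a limma adjusted p below 0.05, against 19% of all genes tested. Myh11, at most 0.621 in WT libraries, reached the minimum signal through LRP1 eKO libraries alone. It could be tested only if higher in them. The summed signal over 7 genes was 1498 to 1563 in WT and 1843 to 1927 in LRP1 eKO libraries, with no gene at 0 in all of them. The part of smooth muscle cells in the Ccl2 and Ccl7 differences was not tested. Ccl11 (eotaxin), which attracts eosinophils through Ccr3, was listed at 0 in 6 of 8 libraries and at 0.0387 and 0.0553 in WT replicate 3 and LRP1 eKO replicate 1.

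**Figure D2:**
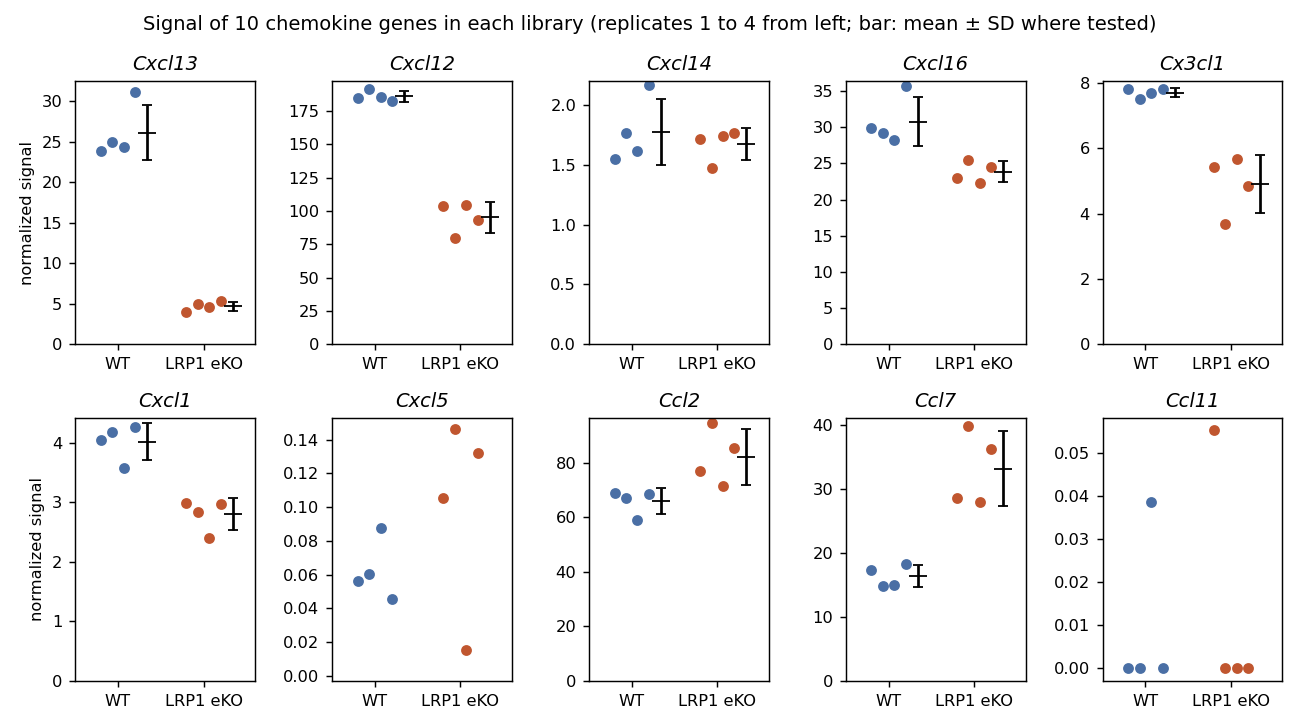
Normalized signal (y axis, a separate scale for each gene) of the 10 chemokine genes in the 4 WT (blue) and 4 LRP1 eKO (orange) libraries, in replicate order from left to right, with the mean ± SD for the 8 genes above the minimum signal. Cxcl13 lies at 23.9 to 31.2 in WT and 4.02 to 5.31 in LRP1 eKO libraries, Ccl2 and Ccl7 are higher in LRP1 eKO libraries, and Cxcl14 overlaps.

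Of the 10 genes, 8 passed the minimum signal, each in all 4 libraries of both genotypes. Cxcl13 alone was past a limma adjusted p of 0.05 and a 2-fold change, thresholds that 1.66% of all genes tested passed. At the adjusted p alone, 2 of the 8 were higher and 5 lower in LRP1 eKO libraries, where 41.2% of all genes tested were past it, 19% higher and 22.2% lower. Groups did not overlap for 7 of the 8, against 42.6% of all genes. The chemokines were chosen on this contrast, so nothing is read from these counts. Cxcl12 and Ccl7 lay just outside the 2-fold threshold, and without LRP1 eKO replicate 1 or without LRP1 eKO replicate 3 both were past it, which raised the count of chemokines past both thresholds from 1 to 3. Without WT replicate 4, Ccl7 was past it at 1.02 and the count was 2. The median log2 difference of the 8 genes was -0.38, and that of all genes tested was -0.01.

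Levels of different genes can be compared only per transcript length, and it is not stated whether the deposited signal was already divided by length. The order was therefore taken both from the signal as it stands and from the signal divided by the length of the longest transcript. Signal did not rise with transcript length (Spearman's correlation -0.23 over 11273 genes), so the order per kb may divide by length a second time. Cxcl13 was the fourth highest of the 10 in WT libraries in signal and the third in signal per kb, and the sixth and the fifth in LRP1 eKO libraries. Ccl7 was the fifth in WT and the third in LRP1 eKO libraries in signal, and the fourth and the second in signal per kb. Cxcl12 and Ccl2 led in WT libraries on both scales, in opposite order, with means of 33.1 and 81.1 signal units per kb, and Cxcl14, Cxcl5 and Ccl11 were last on both scales in both genotypes. Some neighbours in this order did not differ beyond their spread. In signal, Cxcl16 and Cxcl13 overlapped in WT libraries (28.3 to 35.7 and 23.9 to 31.2). Cxcl12 and Ccl2 overlapped in LRP1 eKO libraries (79.5 to 104 and 71.6 to 94.8), as did Cx3cl1 and Cxcl13 (3.69 to 5.69 and 4.02 to 5.31).

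Cxcl13 was also set against the other chemokines of the same library, as the difference of their log2(signal + 1) values, called the log2 ratio here. The mean ratio difference between genotypes equals the log2 difference of Cxcl13 minus that of the other gene. It therefore restates the contrast that chose the genes and is given as a description. The log2 ratio of Cxcl13 to each of the 7 other chemokines above the minimum signal was lower in every LRP1 eKO library than in every WT library. The mean ratio differed least for Cxcl12, the chemokine with the next largest negative difference, with a log2 ratio of -2.90 to -2.51 in WT and -4.38 to -3.76 in LRP1 eKO libraries, a difference of -1.28. For Cx3cl1 the difference was -1.67, for Cxcl1 -1.85, for Cxcl16 -1.89 and for Cxcl14 -2.20. It was widest for the chemokines that were higher in LRP1 eKO libraries, -2.55 for Ccl2 and -3.21 for Ccl7. Relative to Ccl7, Cxcl13 went from above it in all WT libraries, at a log2 ratio of 0.44 to 0.74, to below it in all LRP1 eKO libraries, at -2.78 to -2.39. The neighbouring genes Ccl7 and Ccl2 also differed in their ratio. The ratio of Ccl7 to Ccl2 signal was 0.222 to 0.266 in WT libraries and 0.372 to 0.423 in LRP1 eKO libraries.

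**Figure D3:**
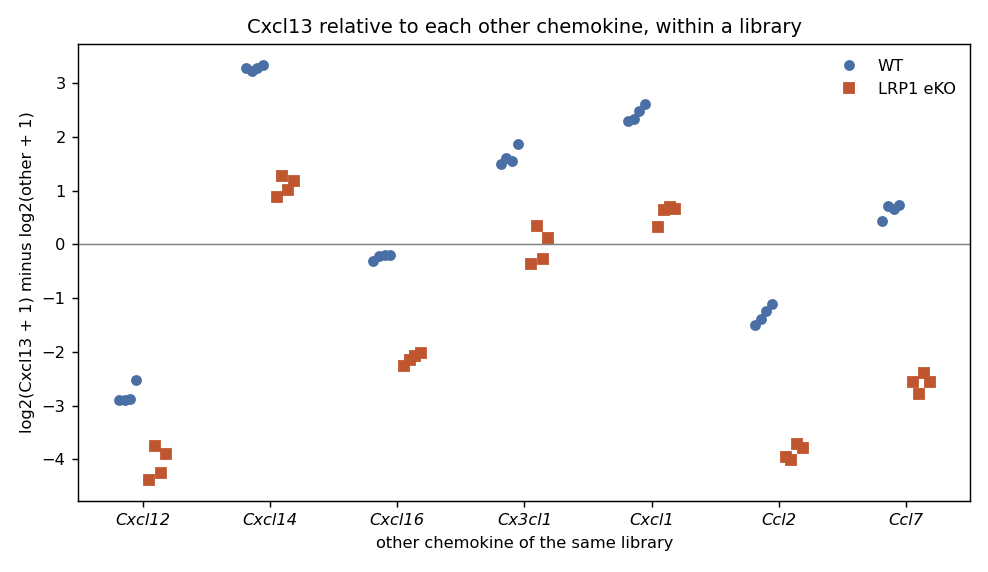
Difference between log2(Cxcl13 signal + 1) and log2(signal + 1) of 7 other chemokines in the same library (y axis); circles are WT and squares LRP1 eKO libraries. For each chemokine all 4 LRP1 eKO libraries lie below all 4 WT libraries, by a mean of -1.28 for Cxcl12 to -3.21 for Ccl7. These differences restate the contrast on which the genes were chosen.

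Variation between libraries of the same genotype was not used to choose these genes. It was described by Pearson's r over the 8 libraries, as deviations of log2(signal + 1) from the genotype mean. These libraries share their normalization and, where the points at the ends are LRP1 eKO replicate 2, that library. Cxcl12 and Cx3cl1 varied together (r = 0.96, and 0.75 without LRP1 eKO replicate 2), as did Ccl2 and Ccl7 (r = 0.89 and 0.81). The pairs varied against each other, with r = -0.88 for Cxcl12 and Ccl7, and -0.89 without LRP1 eKO replicate 2. Cxcl13 went most closely with Cxcl16 (r = 0.85), an order that rested on WT replicate 4, since without it r was 0.60 for Cxcl16 and 0.66 for Ccl7. It was not close to Cxcl12 (r = -0.46), although both were lower in LRP1 eKO libraries.

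The same deviations were set beside the mean of 14 macrophage and Kupffer cell markers, whose summed signal was 113 to 223 in WT libraries. Of the 9 markers tested, 1 was higher at a limma adjusted p below 0.05, against 19% of all genes tested, and none of the 14 was at 0 in all libraries. Cxcl12 and Cx3cl1 followed the macrophage mean, with r = 0.97 and 0.95, and 0.85 and 0.58 without LRP1 eKO replicate 2. Ccl2 and Ccl7 ran against it, with r = -0.82 and -0.83, and -0.72 and -0.92 without that library. Cxcl13 had r = -0.47, and -0.92 without that library. The part of macrophages in the genotype differences was not tested. The genotype differences of Cxcl12, Cx3cl1, Ccl2 and Ccl7 were smaller without LRP1 eKO replicate 2 and kept their sign. The macrophage mean was higher in 3 of the 4 LRP1 eKO libraries than in any WT library.

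**Figure D4:**
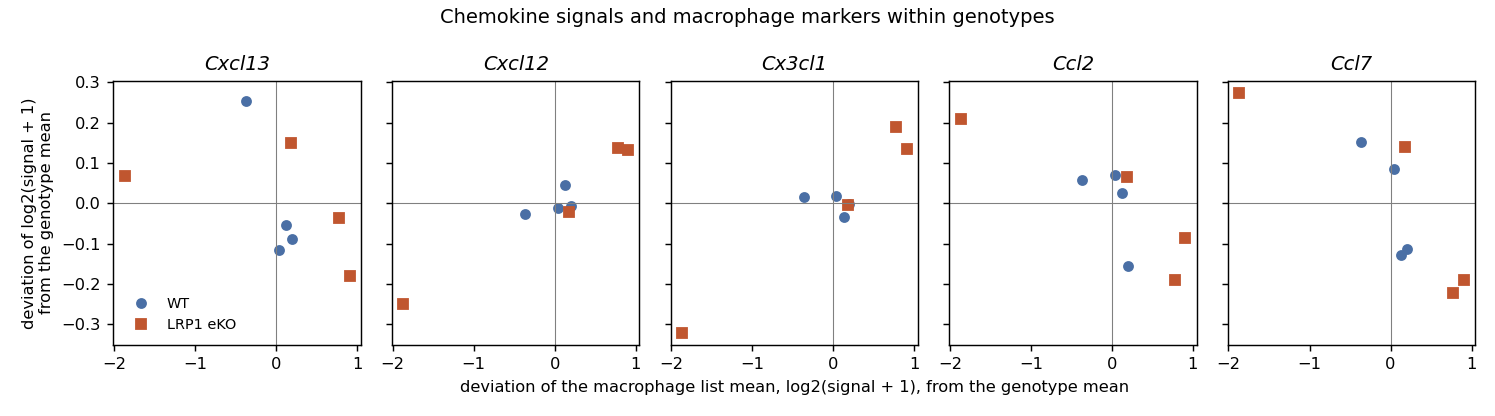
Deviation of log2(signal + 1) from the genotype mean for 5 chemokines (y axis) against the deviation of the mean of the macrophage markers (x axis); circles are WT and squares LRP1 eKO libraries. The square at the far left is LRP1 eKO replicate 2, in which Cxcl12 and Cx3cl1 are lowest and Ccl2 and Ccl7 highest among LRP1 eKO libraries.

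By the same measure, the 5 genes most like Cxcl13 within genotypes were Hectd3 (r = 0.99), 2410091C18Rik (r = 0.99), Cfdp1 (r = 0.99), Nmd3 (r = 0.98) and Fbxo44 (r = 0.98), over 8 libraries and among 11391 genes. With so many genes and 8 libraries, high values of r are found for many genes, and leaving out a library kept between 2 and 5 of these names among the closest 5. None of them is a chemokine. Hectd3, a ubiquitin ligase, had signals of 9.22 to 10.4 in WT libraries and at least 9.82 in LRP1 eKO libraries (log2 difference 0.12), so that a gene that follows Cxcl13 between libraries of a genotype need not share its difference between genotypes. Fbxo44, an F-box protein, was at 6.74 to 9.20 in WT and 3.08 to 4.09 in LRP1 eKO libraries.

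Most signaling receptors for these chemokines were below the minimum signal. Of 18 signaling chemokine receptors in the table, 1 passed the minimum signal, Cxcr4, the receptor of Cxcl12. Its signals were 2.69, 2.93, 3.54 and 1.39 in WT libraries and 10.8, 1.08, 10.6 and 5.96 in LRP1 eKO libraries. Apart from LRP1 eKO replicate 2, every LRP1 eKO library was above every WT library, and Cxcr4 followed the macrophage mean within genotypes (r = 0.99). The log2 difference was 0.91 (SE 0.49, limma adjusted p = 0.158), and without that library it was 1.48 (adjusted p = 0.00167). Cxcr5, the receptor of Cxcl13, reached at most 0.0573 in any library. Cxcr2 reached 0.199, Cxcr6 0.111, Ccr2 0.0438, Ccr3 0.0787 and Cx3cr1 0.299. Ccr1, a receptor of Ccl7, had signals of 0.693 to 0.886 in WT and 0.937 to 2.50 in LRP1 eKO libraries and also followed the macrophage mean (r = 0.99).

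Among 6 atypical receptors, which bind chemokines without G protein signaling, 2 were tested and 1 was higher at the adjusted p alone, against 19% of all genes tested. Ackr3 scavenges Cxcl12 and had signals of 7.18, 6.94, 7.24 and 7.17 in WT libraries and 9.17, 8.52, 8.64 and 8.48 in LRP1 eKO libraries. All LRP1 eKO libraries were higher (log2 difference 0.25, SE 0.05, limma adjusted p = 0.00279), opposite in direction to Cxcl12 itself. Ccrl2 did not pass the test (log2 difference -0.05, adjusted p = 0.812). Ackr1, Ackr2 and Gpr182 were below the minimum signal, with Ackr1 at 0.162 to 0.383 in WT and 0.465 to 0.589 in LRP1 eKO libraries. Ackr4, which scavenges Ccl19, Ccl21 and Ccl25, was below it too and lay the other way, at 0.675 to 0.974 in WT and 0.305 to 0.519 in LRP1 eKO libraries.

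Of 27 other chemokine ligands in the table, 8 were tested, and 2 were higher and 0 lower past both thresholds, against 1.66% of all genes tested in either direction. Of these 2, Cxcl10 could pass the minimum signal at its level in either genotype and Ccl5 could not. Cxcl10, an interferon-induced ligand of Cxcr3 that attracts activated T cells, had signals of 1.22 to 2.07 in WT libraries and 4.42, 4.03, 4.58 and 5.19 in LRP1 eKO libraries. Ccl5 (RANTES), which attracts T cells and monocytes, had 0.180 to 0.369 in WT libraries and 2.42, 2.51, 2.37 and 2.34 in LRP1 eKO libraries. Neither gene overlapped between groups. The log2 difference of Cxcl10 was 1.14 (SE 0.11, limma adjusted p = 3.61e-05), and the exact two-sided permutation test gave p = 0.0286, the smallest that 4 libraries against 4 allow. That of Ccl5 was 1.41 (SE 0.07). LRP1 eKO replicate 2 was not apart for either gene. Ccl5 reached the minimum signal through its LRP1 eKO libraries alone and so could be fitted only by being higher there, and its difference is given without a p. The other 6 tested ligands were not past the adjusted p, but without LRP1 eKO replicate 2, the library with the lowest macrophage markers, Ccl6 (log2 difference 1.68), Pf4 (1.43) and Ccl3 (1.06) were past both thresholds. For Ccl9, Pf4, Ccl3 and Ccl6 the groups overlapped only through LRP1 eKO replicate 2, and the other LRP1 eKO libraries were above all WT libraries. For Ccl27a they overlapped widely, at 4.26 to 9.89 in WT and 4.50 to 6.36 in LRP1 eKO libraries. Ccl6 followed the macrophage mean within genotypes (r = 1.00), with signals of 4.81 to 9.24 in WT and 1.29 to 29.7 in LRP1 eKO libraries. Ccl25 was at 3.98 to 5.52 in WT and 4.73 to 6.06 in LRP1 eKO libraries. At 0 in all libraries were 5 ligands, among them Ccl22 and Xcl1, and Ccl12, next to Ccl11 on chromosome 11, was at 0 in all WT libraries and at 0.0706 to 0.285 in LRP1 eKO libraries.

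Of 6 proteases that shed or trim chemokines, 5 were tested, and Mmp9, at 0.121 or below in every library, was not. Adam10 and Adam17, the sheddases of Cxcl16 and Cx3cl1, had log2 differences of 0.20 (SE 0.12, limma adjusted p = 0.203) and -0.12 (SE 0.06, adjusted p = 0.115). Dpp4, which cuts the N terminus of Cxcl12, had signals of 13.0, 13.4, 14.1 and 12.2 in WT libraries and 13.8, 11.3, 14.0 and 13.9 in LRP1 eKO libraries, with a log2 difference of 0.00 (SE 0.08, adjusted p = 0.977). At the adjusted p alone, 1 of the 5 was lower, against 22.2% of all genes tested. This was Mmp2, a gelatinase that inactivates Cxcl12 and Ccl7, at 126, 135, 139 and 137 in WT and 117, 80.9, 120 and 102 in LRP1 eKO libraries (log2 difference -0.37, SE 0.11, adjusted p = 0.0218). The adjusted p of Mmp2 was 0.0525 without WT replicate 3 and 0.0533 without LRP1 eKO replicate 4. Mmp14 was at 223 to 243 in WT and 246 to 252 in LRP1 eKO libraries (adjusted p = 0.0959).

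For the lymphotoxin and noncanonical NF-kappa B pathway, 13 genes were in the table and 10 were tested. At the adjusted p alone, 1 was higher and 3 were lower, 4 of 10 against 41.2% of all genes tested, and 0 passed the 2-fold threshold as well. The ligands Lta and Ltb stayed at or below 0.117 in every library, and Tnfsf14 was at 0 in all of them. Ltbr, their receptor, had signals of 55.6 to 64.8 in WT libraries, above those of all LRP1 eKO libraries, which reached 52.7 (log2 difference -0.22, SE 0.05, limma adjusted p = 0.00786). Nfkb2, which encodes the p100 precursor, differed by -0.17 (SE 0.05, adjusted p = 0.0344) and its partner Relb by -0.26 (SE 0.09, adjusted p = 0.0469). These 2 falls were near the threshold. Without LRP1 eKO replicate 3 the adjusted p was 0.101 for Nfkb2 and 0.116 for Relb, and over 18 settings of the analysis 6 lost the call for Nfkb2 and 8 for Relb. Chuk, the kinase that activates p100 processing, was higher, at 13.9 to 17.2 in WT and 19.1 to 23.5 in LRP1 eKO libraries (log2 difference 0.40, SE 0.08, adjusted p = 0.0041). The LRP1 eKO mean of Ltbr was 85.7% of its WT mean. The part of this pathway in the Cxcl13 difference was not tested.

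**Figure D5:**
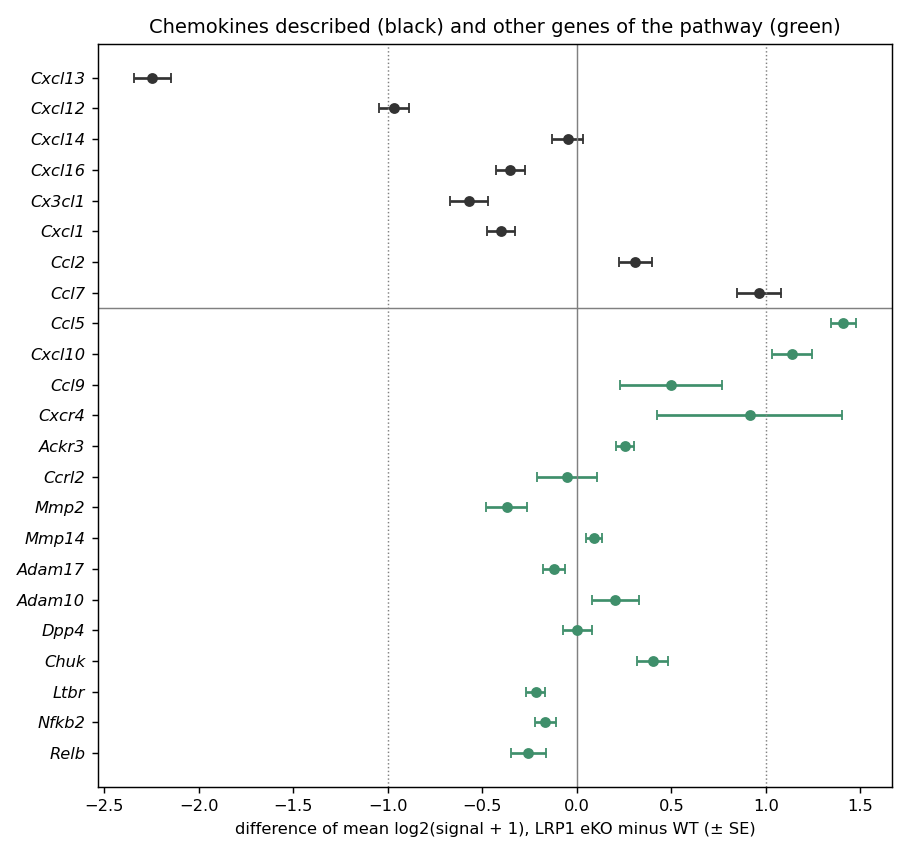
Difference of mean log2(signal + 1) between LRP1 eKO and WT libraries (x axis, bars are ± 1 SE) for the 8 chemokines above the minimum signal (black) and 15 other genes of the pathway (green), with dotted lines at a 2-fold change. Cxcl13 at -2.25 lies far to the left of every other gene shown, and Ccl5 at 1.41 and Cxcl10 at 1.14 lie to the right of the 2-fold line.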

How the data were processed

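The mRNA-seq signals of 4 WT and 4 LRP1 eKO libraries of liver ECs were analysed, and libraries were assigned to genotype and replicate by the sample titles. The authors deposited 1 table of quantile-normalized signal per gene, with a column per library. The unit before normalization is not stated. The study's methods name STAR, featureCounts, edgeR and mm10, while the submitters' processing notes name TopHat2 and Cufflinks with mm10, so that it is not known which of them made this table. Counts were not used here, so a count test was not run.

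From the deposited signal, log2(signal + 1) was fitted with limma 3.58.1 in R 4.3.3 with a mean-variance trend and genotype as the only term, over the 11391 genes whose signal reached 1 in 4 or more of the 8 libraries, with Benjamini-Hochberg adjustment over all of them. The thresholds, those of the study's methods, were an adjusted p under 0.05 and a 2-fold change. Exact permutation tests were two-sided. The calculation was tested on simulated data. Gene symbols were matched through Ensembl identifiers, so that renamed genes (Ackr1 to Ackr4) were found, and Cxcl11 was not analysed here. Gene positions came from GENCODE M21 and figures were drawn with matplotlib 3.10.9.

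The chemokines, the pathway and marker lists and the rule for naming genes were chosen with earlier results of these data known. The rule named the 10 chemokines, Lrp1, the receptors of the chemokines, Adam10, Adam17 and Dpp4, in each pathway list the genes past both thresholds and the 3 with the smallest adjusted p, the 5 genes closest to Cxcl13, and in each marker list the 2 highest genes and any at 0. Not all of the latter are named. Cdh5, Pecam1, Relb, Ackr4, Mmp9, Myl1 as a companion of Cxcl13, and lymphoid stromal markers were named after their values were seen. So were Atp2a1, Tnnc2, Alb, Apoa1, Myh11, and the untested or overlapping ligands and lymphotoxin genes. Alternatives were no filter or a mean signal of 5 or more, pseudocounts of 0.1 and 5, robust moderation or no trend in limma, centring each library on a trimmed mean, a log2 ratio of arithmetic means, the replicate number as a block, the adjusted p alone and leaving out each library. Leaving out LRP1 eKO replicate 2 and WT replicate 4 together was chosen after seeing the data.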

Additional observations from a re-analysis of the deposited data

Results flagged for a closer look

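In each group of 4 libraries, the gap between the highest or lowest signal and its nearest neighbour was divided by the range of the group and compared with Dixon's critical value for 4 samples, for the chemokines and the pathway genes named above. Of 54 groups examined, 4 were past it, where chance alone gives about 2.7. WT replicate 4 was highest for Cxcl13, with a signal of 31.2 and a gap of 0.849 of the range. LRP1 eKO replicate 2 was lowest for Dpp4, with a signal of 11.3 and a gap of 0.918. For Ccl11 the gap was 1 in both genotypes, since WT replicate 3 in the WT group and LRP1 eKO replicate 1 in the LRP1 eKO group were the only libraries above 0.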

How the results depend on the processing

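The log2 difference of Cxcl13 stayed negative in all alternatives, a description since the gene was chosen on this contrast. It was -2.25, and -2.45 with a pseudocount of 0.1, -1.68 with a pseudocount of 5 and -2.47 as a log2 ratio of arithmetic means. The difference in the log2 ratio of Cxcl13 to Cxcl12 was -0.74 with a pseudocount of 5. Cxcl14 changed sign, to 0.017 without WT replicate 4 and 0.053 without that library and LRP1 eKO replicate 2, with a range of -0.088 to 0.017 over the libraries left out in turn. Of the 10 chemokines, 1 was past both thresholds, 2 with a pseudocount of 0.1 and 7 at the adjusted p alone, and leaving out a library gave 1 to 3. Of the pathway genes tested, 2 were past both thresholds, Cxcl10 and Ccl5, against 1.66% of all genes tested. Ccl5 could be tested only by being higher in LRP1 eKO libraries, so its call is not read as a result. The count was 0 with a pseudocount of 5 or a minimum mean signal of 5. At the adjusted p alone it was 8, where 41.2% of all genes tested were past it. It was 4 without both LRP1 eKO replicate 2 and WT replicate 4. Leaving out a library gave 1 (without LRP1 eKO replicate 1, 3 or 4) to 5 (without LRP1 eKO replicate 2, where Cxcr4, Ccl6, Pf4 and Ccl3 joined Cxcl10). Ccl5 left the test with any LRP1 eKO library, since fewer than 4 libraries then reached the minimum signal. Leaving out a library kept 2 to 5 of the genes most like Cxcl13. The cause of the other changes was not tested.

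Deviations of libraries with the same replicate number correlated at -0.09, -0.13, 0.18 and 0.04, so the numbers were not taken to pair libraries. With the replicate block, 1 of the 10 chemokines and 2 pathway genes, Cxcl10 and Ccl5, were past both thresholds, as without it. Ccl5 is counted here although it could be tested only by being higher in LRP1 eKO libraries. Pathway genes at the adjusted p alone went from 8 to 6, since Nfkb2 (limma adjusted p = 0.0565) and Relb (0.0723) lost the call. Among genes below the minimum signal, values near 0 cannot show a difference, and counting error is unknown because the table holds no counts.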
